A study of Mus musculus with 2 samples.

Results

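Fatty acid oxidation was described here through 32 genes, taken by symbol from the 32285 features that were counted. They comprise the carnitine shuttle, the enzymes of mitochondrial and peroxisomal β-oxidation, their electron acceptors, and known targets of the nuclear receptor PPARα, and all 32 were found in the files. The cells came from the whole aorta of male C57BL6 mice, from the arch to the bifurcation, digested with enzymes and profiled with the droplet-based 10x Genomics 3′ v3 assay. The Cept1 library was from Cept1fl/fl mice that carry the tamoxifen-inducible VE-cadherin-Cre-ERT2 (Cre+), in which the labels state that Cept1 is overexpressed in endothelial cells, and the control library was from Cept1fl/fl mice without Cre. The protocol gives 5 daily injections of 1 mg tamoxifen to both groups, followed by 5 days of recovery. It states an age of at least 8 weeks, whereas the sample labels give 6 to 8 weeks. It gives 3 mice per condition and does not say whether they were pooled, and each condition is 1 library. Genotype and library therefore cannot be told apart, no test between the conditions was possible, and every interval below is a 95% interval for counting error only.

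Long-chain fatty acids are activated to acyl-CoA, transferred to carnitine by CPT1 at the outer mitochondrial membrane, carried inwards by the SLC25A20 translocase and returned to acyl-CoA by CPT2. Each turn of β-oxidation then removes an acetyl unit by dehydrogenation, hydration, a further dehydrogenation and thiolysis, while very long chains are first shortened in peroxisomes. PPARα, bound to lipids as its ligands, raises transcription of many of these genes. Cept1 encodes choline/ethanolamine phosphotransferase, which makes the membrane lipids phosphatidylcholine and phosphatidylethanolamine.

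Of the 32 genes, 27 had a promoter in RefSeq (GRCm38.p6), taken from 250 bases before to 50 bases after the start site. The hexamer AGGTCA, which PPARα with its RXR partner binds as a direct repeat, was present on either strand in 5 of the 28 windows of these genes (17.9%) and in 16.3% of all 32851 windows of this length. The repeat itself, AGGTCA, any base and AGGTCA again, was searched on both strands and was present in 0 of the 28 windows and in 13 of all windows. The genes with the hexamer were Acadm, Acadvl, Cat, Cpt1a and Plin2. The promoters of Plin2 and Cpt1a are shown because these 2 genes had their highest level in macrophages, that of Acadm because it belongs to a group highest in smooth muscle, and in these 3 the capitals mark the hexamer or its reverse complement. The Hadhb promoter is shown because Hadha starts 273 bases away on the opposite strand by these RefSeq start sites. Its capitals mark the 228 bases that also lie in the Hadha promoter window. The GENCODE vM21 annotation places the outermost starts closer, at 30155162 for Hadha and 30155248 for Hadhb.
Plin2, chr4:86670010-86670309, minus strand: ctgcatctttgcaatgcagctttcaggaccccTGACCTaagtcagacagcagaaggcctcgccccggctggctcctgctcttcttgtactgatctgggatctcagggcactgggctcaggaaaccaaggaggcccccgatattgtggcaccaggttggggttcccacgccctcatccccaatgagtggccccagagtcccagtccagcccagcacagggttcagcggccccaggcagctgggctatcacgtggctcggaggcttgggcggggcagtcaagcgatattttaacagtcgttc
Cpt1a, chr19:3323051-3323350, plus strand: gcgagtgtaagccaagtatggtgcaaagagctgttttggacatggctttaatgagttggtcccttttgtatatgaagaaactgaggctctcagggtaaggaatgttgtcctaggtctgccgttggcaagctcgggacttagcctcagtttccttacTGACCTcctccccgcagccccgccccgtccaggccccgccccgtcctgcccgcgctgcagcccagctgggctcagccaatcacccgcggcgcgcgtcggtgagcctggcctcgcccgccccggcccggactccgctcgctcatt
Acadm, chr3:153944594-153944893, minus strand: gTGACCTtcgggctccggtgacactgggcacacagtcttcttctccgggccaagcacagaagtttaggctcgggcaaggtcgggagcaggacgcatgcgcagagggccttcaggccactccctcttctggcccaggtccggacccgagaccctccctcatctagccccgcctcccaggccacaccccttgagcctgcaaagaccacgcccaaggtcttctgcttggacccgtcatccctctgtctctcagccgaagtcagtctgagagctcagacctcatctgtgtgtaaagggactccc
Hadhb, chr5:30155003-30155302, plus strand: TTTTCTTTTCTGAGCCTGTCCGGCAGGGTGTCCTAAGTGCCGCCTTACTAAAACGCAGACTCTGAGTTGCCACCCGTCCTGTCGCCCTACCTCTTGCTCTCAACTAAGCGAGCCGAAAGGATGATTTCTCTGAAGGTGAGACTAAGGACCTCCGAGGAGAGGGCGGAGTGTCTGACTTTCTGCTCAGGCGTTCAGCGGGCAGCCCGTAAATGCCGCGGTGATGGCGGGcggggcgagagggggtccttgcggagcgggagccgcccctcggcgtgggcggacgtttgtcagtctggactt

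The Cept1 library held 95735360 unique molecular identifiers (UMIs, each a counted transcript molecule) in 17728 barcodes, and the control library 88220524 in 14349 barcodes; 74 barcode sequences occurred in both. Filtering on genes and mitochondrial UMIs kept 11168 of those barcodes and 8729 of the control barcodes, and the median cell had 6438.5 and 6735 UMIs. Cells were placed in classes by counts of detected marker genes. A class is thus a range of marker counts, and 41 and 22 of the endothelial cells and 28 and 24 of the macrophages were at the lowest count that passed. Cells with enough markers of at least 1 class, but without the required margin over the others, were left out as possible doublets. They were 11.9% and 15.97% of the kept cells. Levels are counts per 1000000 UMIs of the class (CPM), a gene was called measured in a class with at least 20 UMIs over both libraries, and a 1.5-fold difference stood in for a test. Among endothelial cells 666 of 1077 in the Cept1 library and 201 of 476 in the control library were arterial by their markers, and 309 and 192 were capillary. Cept1 itself, the targeted gene, was at 129 CPM in endothelial cells of the Cept1 library and 80.3 CPM in those of the control library, a log2 ratio of 0.69 (0.51 to 0.87). Its log2 ratio was 0.65 in arterial and 0.96 in capillary cells. It was 0.13 (-0.19 to 0.46) in lymphatic endothelium, 0.12 (0.01 to 0.24) in fibroblasts, 0.17 (0.04 to 0.29) in macrophages, 0.29 (0.05 to 0.52) in smooth muscle, 0.42 (0.13 to 0.72) in T or NK cells and -0.13 (-0.55 to 0.27) in B cells.

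Endothelial cells, the cells in which Cept1 was targeted, held the fatty acid oxidation genes at nearly the same level in both libraries. Together the 32 genes took 1228.6 CPM in the Cept1 library and 1267.4 CPM in the control library, a log2 ratio of -0.04 (-0.09 to 0.00). Of the 31 measured genes, 15 were higher and 16 lower, with a median log2 ratio of -0.02, beside 0.00 over all 12682 measured genes. None was 1.5-fold higher and 2 were 1.5-fold lower, Cpt1b and Fabp3, whereas 8.21% of all measured genes were 1.5-fold higher and 6.13% were 1.5-fold lower. Both rested on few molecules, 15 and 12 UMIs for Cpt1b and 8 and 13 UMIs for Fabp3.

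**Figure D1:**
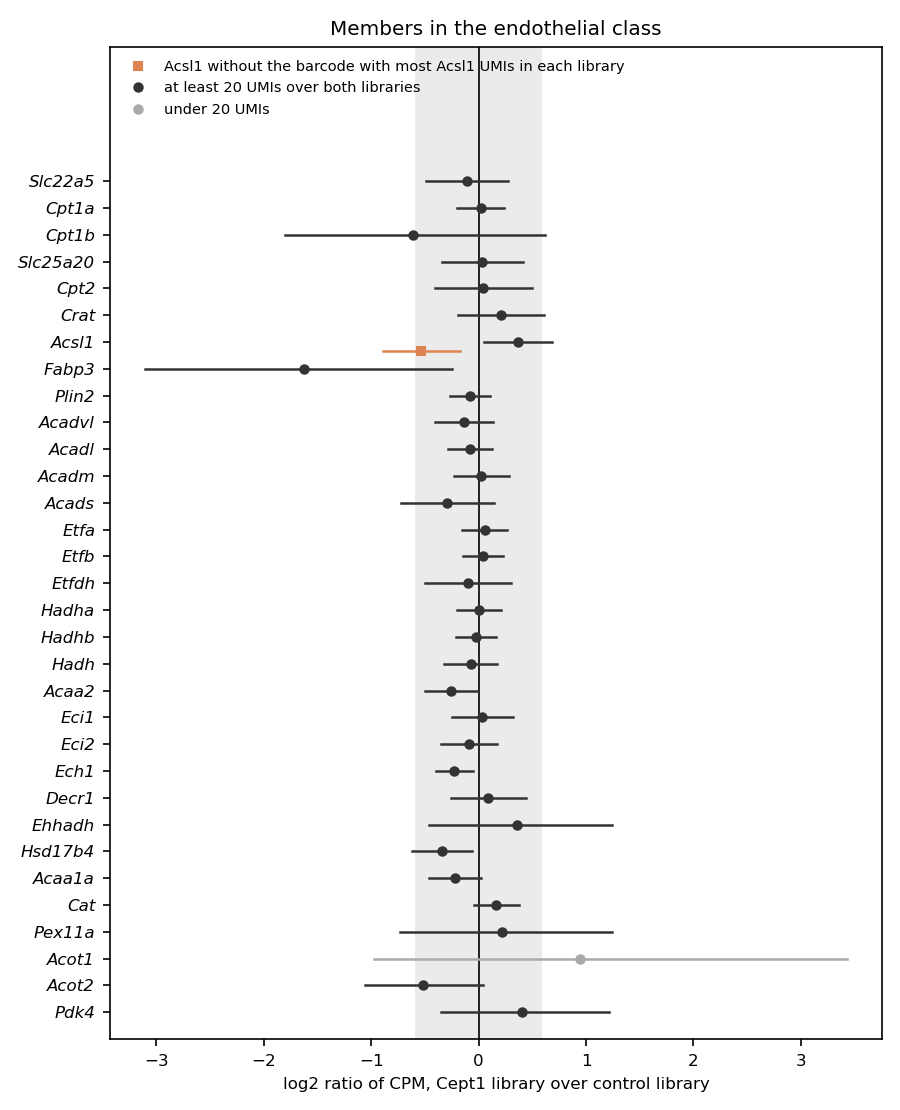
Log2 ratio of CPM in the Cept1 library over the control library for each of the 32 genes in endothelial cells. Points are ratios, lines are 95% intervals for counting error, the grey band spans 1.5-fold in either direction, and the square shows Acsl1 without its richest barcode. Apart from Cpt1b, Fabp3 and Acot1, each gene's ratio lies within the band, and Acsl1 moves from 0.36 to -0.54.

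The carnitine shuttle summed to 142 CPM and 140 CPM, a log2 ratio of 0.02 (-0.12 to 0.16). Cpt1a, the liver-type carnitine palmitoyltransferase and the gate of the pathway, was at 61.9 and 61.0 CPM, from 501 and 260 UMIs, a log2 ratio of 0.02 (-0.20 to 0.24). Its mitochondrial partner Cpt2 was at 15.4 and 15.0 CPM (0.04, -0.41 to 0.50). The 2 libraries were also close for the translocase Slc25a20, with 21.6 and 21.1 CPM, and for the carnitine importer Slc22a5, with 20.2 and 21.8 CPM. Crat, which exchanges short acyl groups with carnitine, was at 21.1 and 18.3 CPM (0.21, -0.19 to 0.61). Cpt1b, the muscle form of the transferase, was near the limit of detection at 1.85 and 2.82 CPM, and its interval ran from -1.80 to 0.62.

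The enzymes of the mitochondrial spiral differed little either. Of the acyl-CoA dehydrogenases, which act on chains of different length, Acadvl was at 38.5 and 42.3 CPM (-0.13, -0.40 to 0.14) and Acadm at 45.8 and 45.1 CPM (0.02, -0.23 to 0.28). Acadl had a log2 ratio of -0.08 and the short-chain enzyme Acads -0.29, and the intervals of both included 0. The flavoproteins that take their electrons, Etfa, Etfb and the ubiquinone oxidoreductase Etfdh, were at 0.06, 0.04 and -0.10. Hadha and Hadhb, the subunits of the trifunctional protein, were at 71.5 and 71.1 CPM and at 82.7 and 84.0 CPM, log2 ratios of 0.01 and -0.02. The short-chain dehydrogenase Hadh was at -0.07 (-0.32 to 0.18). The thiolase Acaa2 was at 45.9 and 54.9 CPM, a log2 ratio of -0.26 (-0.50 to -0.02). Of the enzymes that prepare unsaturated chains, Eci1, Eci2 and Decr1 lay between -0.09 and 0.09, and Ech1 was at 87.6 and 102 CPM (-0.22, -0.40 to -0.05). In the Cept1 library Ech1 was lower in arterial but not in capillary cells, with values given below.

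Among the peroxisomal genes Hsd17b4, the multifunctional enzyme of that compartment, was at 34.1 and 43.2 CPM, a log2 ratio of -0.34 (-0.62 to -0.07). Catalase (Cat), which removes the hydrogen peroxide formed there, was at 74.4 and 66.4 CPM (0.16, -0.04 to 0.37). The thiolase Acaa1a was at -0.22, Ehhadh at 0.36 and the peroxisome division gene Pex11a at 0.22, with intervals that included 0. Acaa1a shares runs of up to 186 bases with its copy Acaa1b in the last 500 bases of the transcripts, so their reads may have been split. Acot2, a mitochondrial acyl-CoA thioesterase, was at 8.39 and 11.97 CPM (-0.51, -1.06 to 0.04). Its neighbour Acot1, with 11 and 3 UMIs, was the gene that did not reach 20 UMIs. Pdk4, the kinase that turns pyruvate dehydrogenase off when fat is burned, was at 6.54 and 4.93 CPM (0.41, -0.35 to 1.21). Plin2, which coats lipid droplets and is a common readout of PPAR activity, was at 79.3 and 83.8 CPM (-0.08, -0.27 to 0.11).

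Acsl1, which couples long-chain fatty acids to CoA, was at 36.5 CPM in the Cept1 library and 28.4 CPM in the control library, a log2 ratio of 0.36 (0.05 to 0.68). Of its 296 UMIs in the Cept1 library, 143 came from 1 barcode. That barcode held 47703 UMIs, of which 1332 were of the 7 adipocyte markers, including 1149 of Cfd, 60 of Cidec, 54 of Adipoq and 32 of Plin1, together with 32 UMIs of Cdh5 and 46 of Gpihbp1 from capillary endothelium. Without the richest barcode of each library the log2 ratio of Acsl1 was -0.54. The share of endothelial cells with an Acsl1 UMI was lower in the Cept1 library, 11.7% against 17.6%. With every cell weighted equally Acsl1 was at -0.65. Acsl1 was higher in capillary than in arterial cells in both libraries. Capillary cells were 309 of 1077 endothelial cells in the Cept1 library and 192 of 476 in the control library. The part of this mix in the share and in the equal weighting was not tested. Without that barcode of the Cept1 library alone, the sum of the 32 genes was at 1189.5 CPM, a log2 ratio of -0.09 (-0.14 to -0.04).

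The direction for Plin2 depended on which endothelial cells were read, since arterial cells made up a larger part of the class in the Cept1 library. In capillary cells Plin2 was at 238 CPM in the Cept1 library and 187 CPM in the control library (0.35, 0.13 to 0.58). In arterial cells it was at 32.4 and 30.1 CPM (0.11, -0.31 to 0.54). With arterial, capillary and venous cells weighted equally its log2 ratio in endothelium was 0.30, against -0.08 for the class as a whole.

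Arterial cells gave 29 measured genes, of which 0 were 1.5-fold higher and 1 was 1.5-fold lower, with 8.00% of all measured genes higher and 5.40% lower. The lower gene was Acot2, with 48 and 33 UMIs, at 8.53 and 15.3 CPM (-0.84, -1.51 to -0.15). It was at -0.26 when classes were taken from clusters. The median log2 ratio of the 29 genes was -0.10, and their sum was at 1079 and 1144 CPM (-0.08, -0.15 to -0.02). No role group in arterial cells summed to a 1.5-fold difference except the thioesterases, at -0.72 (-1.34 to -0.07), which is Acot2 and 9 and 3 UMIs of Acot1.

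Capillary cells gave 27 measured genes, with a median log2 ratio of 0.17 beside 0.03 over all genes. Of these, 2 were 1.5-fold higher, Acsl1 and Pdk4, and 1 was 1.5-fold lower, Acot2, with 10.1% of all measured genes higher and 6.86% lower. Acsl1 was at 125 and 68.8 CPM (0.86, 0.51 to 1.22), and Pdk4 had 20 and 3 UMIs (2.35, 0.60 to 4.75). The barcode with adipocyte markers supplied 143 of the 230 Acsl1 UMIs and 12 of the 20 Pdk4 UMIs. Without it 0 genes were 1.5-fold higher, 2 were 1.5-fold lower (Acaa2 and Acot2), the median was 0.02 and the sum of the 32 genes was at 1590.2 and 1533.2 CPM (0.05, -0.03 to 0.13). In the 206 and 120 capillary cells without any adipocyte marker UMI, Acsl1 was at 35.5 and 60.6 CPM (-0.77, -1.44 to -0.11). Plin2 was at 212 and 151 CPM in those cells (0.49, 0.15 to 0.83) and Hadhb at 118 and 82.6 CPM (0.51, 0.06 to 0.98). Adipocyte markers were at 1090 and 200 CPM in capillary cells and at 3.02 and 3.24 CPM in arterial cells. The barcode with adipocyte markers held 1332 of their UMIs in the Cept1 library, including 1149 of the 1625 Cfd UMIs in capillary cells. Brown adipocyte markers were at 28.8 and 53.9 CPM in capillary cells. Acaa2 was at 52.2 and 78.0 CPM in capillary cells (-0.58, -0.99 to -0.17) and at 42.5 and 43.0 CPM in arterial cells (-0.02, -0.37 to 0.34). Its log2 ratio was -0.77 (-1.34 to -0.22) in capillary cells with adipocyte marker UMIs and -0.26 (-0.89 to 0.37) in those without.

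**Figure D2:**
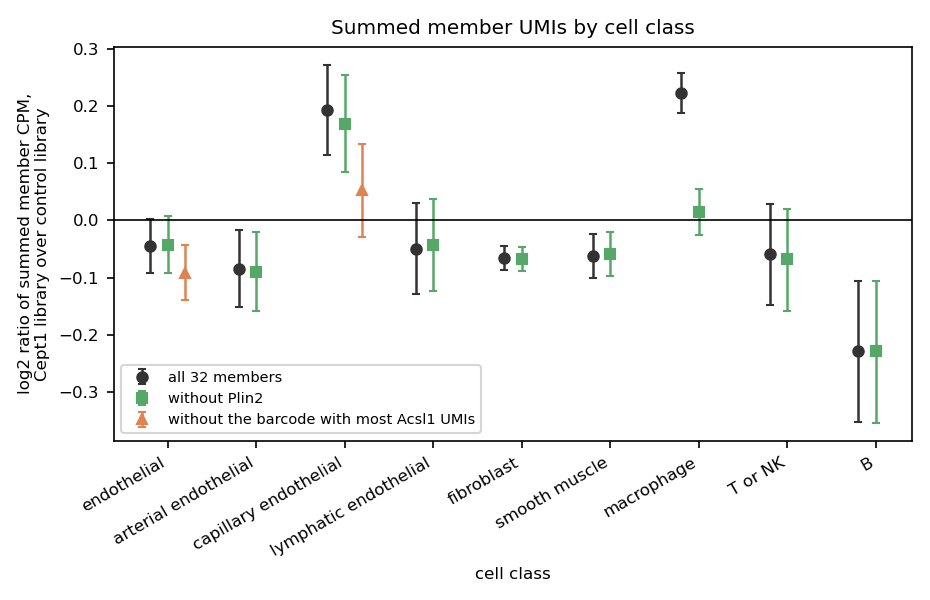
Log2 ratio of the summed CPM of the genes, Cept1 library over control library, in 9 cell classes, with 95% intervals for counting error. Circles show all 32 genes, squares the sum without Plin2, and triangles the sum without the barcode with most Acsl1 UMIs; the macrophage value moves from 0.22 to 0.01 without Plin2, and the capillary value from 0.19 to 0.05 without the barcode.

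Macrophages were the class in which a single gene set the sum. Their 32 genes took 1477.8 CPM in the Cept1 library and 1266.4 CPM in the control library, a log2 ratio of 0.22 (0.19 to 0.26). Without Plin2 the sums were 1019.9 and 1009.4 CPM, a log2 ratio of 0.01 (-0.02 to 0.05). All 32 genes were measured: 2 were 1.5-fold higher, Plin2 and Pdk4, and 2 were 1.5-fold lower, Cpt1b and Acot1, with 6.87% of all measured genes higher and 5.18% lower. The median log2 ratio of the 32 was -0.03, beside 0.02 over all genes. The 2 lower genes had 22 and 20 UMIs and 13 and 11 UMIs, and the intervals of both included 0.

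Plin2 had 6455 UMIs in 1620 macrophages of the Cept1 library and 2036 UMIs in 728 macrophages of the control library, that is 458 CPM (447 to 469) and 257 CPM (246 to 268). The log2 ratio was 0.83 (0.76 to 0.91). The difference was spread over the cells: 82.9% and 76.1% of macrophages had a Plin2 UMI, the median cell had 3.09 and 1.69 Plin2 UMIs per 10000, and the upper quartile was 5.88 and 3.38 per 10000. The 10% of macrophages with most Plin2 UMIs held 39.5% and 41.3% of them. Macrophages had medians of 8139 and 10318.5 UMIs, and with each cell thinned to 2000 UMIs the log2 ratio was 0.77. In B cells, with medians of 4443 and 5346.5 UMIs, 2.90% and 3.22% of cells had a Plin2 UMI. Over the 12 alternative settings computed for it, the log2 ratio of Plin2 in macrophages ran from 0.77 to 0.86.

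**Figure D3:**
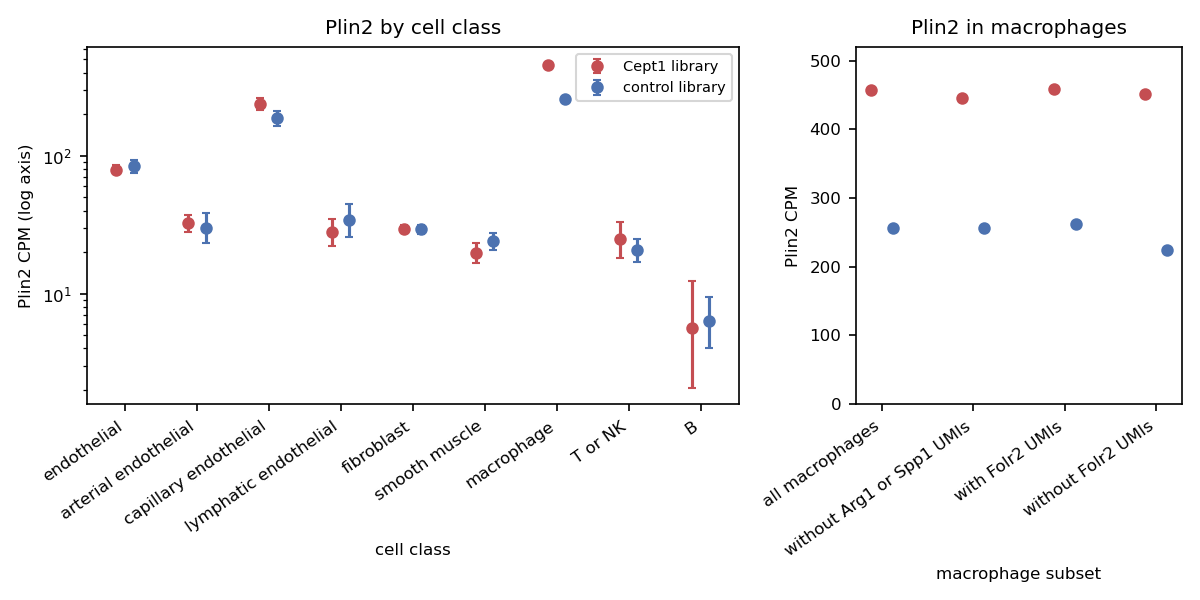
Left, Plin2 CPM (log axis) in 9 cell classes of both libraries, with 95% Poisson intervals. Right, Plin2 CPM in all macrophages and in subsets of them; the Cept1 library lies between 446 and 459 CPM in each, and the control library between 224 and 262 CPM.

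The same was seen within subsets of macrophages that were chosen after the values were seen. Among cells with UMIs of Folr2, a marker of resident macrophages, Plin2 was at 459 and 262 CPM (0.81, 0.73 to 0.89), and such cells were 86.8% and 87.0% of the class. Among cells without Folr2 UMIs it was at 451 and 224 CPM (1.01, 0.80 to 1.23). Without the cells that had UMIs of Arg1 or Spp1, genes of activated macrophages, it was at 446 and 257 CPM (0.80, 0.72 to 0.87). Adipocyte markers in macrophages were at 17.5 and 8.20 CPM, with 16 and 5 UMIs of Adipoq. In the 1535 and 669 macrophages without adipocyte marker UMIs Plin2 was at 454 and 255 CPM (0.83, 0.75 to 0.91). Of the platelet markers Ppbp had 201 and 42 UMIs, Itga2b 95 and 27 and Gp9 75 and 12. Pf4, also on that list, had 33001 and 20632 UMIs, and the whole list was lower in the Cept1 library, at 2368 and 2614 CPM. Pf4 was not used to leave out cells. In the 1453 and 686 macrophages without UMIs of Ppbp, Itga2b or Gp9, Plin2 was at 455 and 256 CPM (0.83, 0.75 to 0.90). Red cell markers were at 5733.4 and 3788.2 CPM in macrophages, and their part in the result was not tested. The smaller myeloid classes, also picked after their values were seen, had Plin2 at 381 and 183 CPM in 125 and 83 neutrophils (1.06, 0.73 to 1.39) and at 122 and 66.3 CPM in 28 and 39 monocytes or dendritic cells (0.88, 0.24 to 1.53). Red cell markers were at 433 and 11512.3 CPM in those neutrophils and at 108 and 10979.2 CPM in those monocytes or dendritic cells, and their part in the result was not tested. In fibroblasts Plin2 was at 29.4 and 29.2 CPM (0.01, -0.13 to 0.15) and in smooth muscle at 19.8 and 24.0 CPM (-0.27, -0.59 to 0.04).

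Apart from Plin2, the macrophage genes with intervals that did not include 0 differed in both directions. Cpt1a was at 99.7 and 76.6 CPM (0.38, 0.24 to 0.52), and with it the carnitine shuttle summed to 181 and 150 CPM (0.27, 0.17 to 0.37). Pdk4 had 46 and 8 UMIs, at 3.26 and 1.01 CPM (1.69, 0.60 to 2.99), and 2.22% and 1.099% of macrophages had a UMI of it. The dehydrogenases summed to -0.09 (-0.19 to 0.01), the hydration and thiolysis steps to 0.04 (-0.06 to 0.14), and the peroxisomal genes to -0.09 (-0.18 to -0.0015). Eci1, an isomerase for unsaturated chains, was at 14.8 and 20.6 CPM (-0.47, -0.77 to -0.17). Acsl1, Acadvl, Acadm, Hadha and Hadhb lay between -0.10 and 0.16, each with an interval that included 0.

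Fibroblasts, the largest class with 4939 and 3469 cells, gave the narrowest intervals. All 32 genes were measured, between -0.30 and 0.28, and 0 were 1.5-fold higher or lower, with 4.30% of all measured genes higher and 6.32% lower. The median was -0.08 beside -0.04 over all genes, and 22 of the 32 genes were lower. Acaa1a was the lowest, at 59.3 and 72.9 CPM (-0.30, -0.39 to -0.20). Hadh was at 37.5 and 44.7 CPM (-0.25, -0.37 to -0.14), Crat at 18.8 and 22.4 CPM (-0.25, -0.42 to -0.09) and Cpt1a at 64.3 and 59.2 CPM (0.12, 0.02 to 0.21). Acadm, Hadha and Hadhb were at -0.06, -0.08 and -0.10.

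Smooth muscle cells gave 31 measured genes, 1 of them 1.5-fold higher, Pdk4, and 1 of them 1.5-fold lower, Cpt2, with 5.18% of all measured genes higher and 6.03% lower. Pdk4 had 226 and 170 UMIs, at 32.3 and 19.98 CPM (0.69, 0.40 to 0.99), in 23.2% and 23.0% of the cells. With each cell thinned to 2000 UMIs its log2 ratio was 0.27. Cpt2 had 60 and 110 UMIs, at 8.56 and 12.9 CPM (-0.59, -1.07 to -0.13). In the 166 and 117 smooth muscle cells without adipocyte marker UMIs, Cpt2 had 13 and 7 UMIs and a log2 ratio of 0.26 (-1.17 to 1.82), and Pdk4 was at 28.6 and 18.9 CPM (0.60, -0.25 to 1.51). Most adipocyte marker UMIs in smooth muscle were of Plin4, with 1120 and 1498, against 0 and 6 of Adipoq and 1 and 196 of Cfd. Acads was at 18.3 and 26.9 CPM (-0.56, -0.88 to -0.24), Cpt1a at 53.0 and 40.7 CPM (0.38, 0.17 to 0.60) and Acsl1 at 90.8 and 107 CPM (-0.23, -0.38 to -0.08).

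Lymphatic endothelial cells gave 26 measured genes, with 1 of them 1.5-fold higher and 0 1.5-fold lower, beside 7.28% and 7.60% of all measured genes. The higher gene was Slc25a20, with 60 and 11 UMIs in 256 and 130 cells, at 20.9 and 6.999 CPM (1.58, 0.64 to 2.66). A UMI of it was found in 16.8% and 6.15% of the cells. When classes were taken from clusters its log2 ratio was 0.52. The 26 genes had a median of -0.15, and Cpt1a, Acadm, Hadha and Hadhb lay between -0.18 and -0.02.

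In T or NK cells, 252 and 634 of them, 0 of 26 measured genes were 1.5-fold higher and 3 were 1.5-fold lower, with 14.8% of all measured genes higher and 7.31% lower. Acot2 was the clearest, with 42 and 247 UMIs, at 23.1 and 46.9 CPM (-1.02, -1.53 to -0.54), in 13.1% and 25.6% of the cells. The other 2, Slc22a5 and Acsl1, had intervals that included 0. Cells with UMIs of Lef1, a gene of naive T cells, made up 77.4% of the class with Cept1 overexpression and 90.4% of the control class. Within these cells Acot2 was at 25.4 and 49.4 CPM (-0.96, -1.50 to -0.45). The alternatives for Acot2 in T or NK cells ran from -1.21 to -0.73. Acot1 and Acot2 share a run of 273 bases but at most 12 bases in the last 500 bases of their transcripts, where 3′ reads fall.

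In B cells, 207 and 590 of them, 1 of 27 measured genes was 1.5-fold higher and 5 were 1.5-fold lower, with 8.28% of all measured genes higher and 14.9% lower. Acads had 5 and 64 UMIs, at 4.70 and 17.7 CPM (-1.91, -3.58 to -0.61). Cpt1a was at 31.0 and 52.7 CPM (-0.76, -1.34 to -0.22) and Acadl at 31.98 and 51.9 CPM (-0.70, -1.27 to -0.16). These 3 genes were lower under each alternative, but Cpt1a moved to -0.21 with cells of at least 1000 genes. The 4 acyl-CoA dehydrogenases together were at 71.5 and 117 CPM in B cells (-0.71, -1.08 to -0.35). The sum of the 32 genes was at 629 and 737 CPM (-0.23, -0.35 to -0.11). Of the 27 measured genes 9 were higher, beside 41.5% of all measured genes. Their median log2 ratio was -0.20, beside -0.09 over all genes.

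The libraries were alike in which class held most of each gene for the larger part of the set. Of the 32 genes, 25 had the same highest class of 7 in both libraries, and for 14 the interval of that class was clear of every other class in both. Smooth muscle was highest for Acsl1, Fabp3, Acadvl, Acadl, Acadm, Hadh and Pdk4. Of these, Acadl, Acadm and Hadh were not clear of the next class in both libraries. Fabp3, the fatty acid binding protein of heart and muscle, was at 43.8 and 40.2 CPM in smooth muscle and at most 3.05 CPM in any other of the 7 classes. Acsl1 was at 90.8 and 107 CPM there, and its next class was endothelium in the Cept1 library with 36.5 CPM and macrophages in the control library with 38.1 CPM. Acadm was at 91.6 and 106 CPM in smooth muscle, and its interval met that of lymphatic endothelium, with 76.0 CPM in the Cept1 library. Pdk4 was next highest in fibroblasts, with 12.3 and 11.1 CPM, and had 0 UMIs and 1 UMI in T or NK cells and in B cells. In the 252 T or NK cells and 207 B cells of the Cept1 library a count of 0 leaves room for up to 3 UMIs.

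Fibroblasts were highest for Cpt2, Etfa, Etfb, Acaa2, Eci2, Decr1 and Acot1, but Decr1 was not clear of the next class in both libraries. Cpt2 was at 31.7 and 30.4 CPM in fibroblasts and at 6.53 and 6.56 CPM in macrophages, where Cpt1a was highest with 99.7 and 76.6 CPM. The outer and the inner enzyme of the carnitine shuttle thus had different highest classes, in both libraries. Macrophages were also highest for Crat, at 42.4 and 38.4 CPM, with 1.65 and 2.85 CPM in T or NK cells. They were highest for the peroxisomal genes Hsd17b4, Cat and Pex11a, but the next class was within counting error for each in at least 1 library. Endothelium was highest for Slc22a5, Hadhb and Eci1, none of them clear of the next class in both libraries. Lymphatic endothelium was highest for Ech1, at 143 and 136 CPM against 111 and 110 CPM in smooth muscle. T or NK cells were highest for Ehhadh, at 10.5 and 9.87 CPM, but not clear of the next class in both libraries. Hadha was the most even of the 32, from 52.6 CPM in macrophages to 71.5 CPM in endothelium in the Cept1 library and from 52.9 to 74.3 CPM in the control library.

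**Figure D4:**
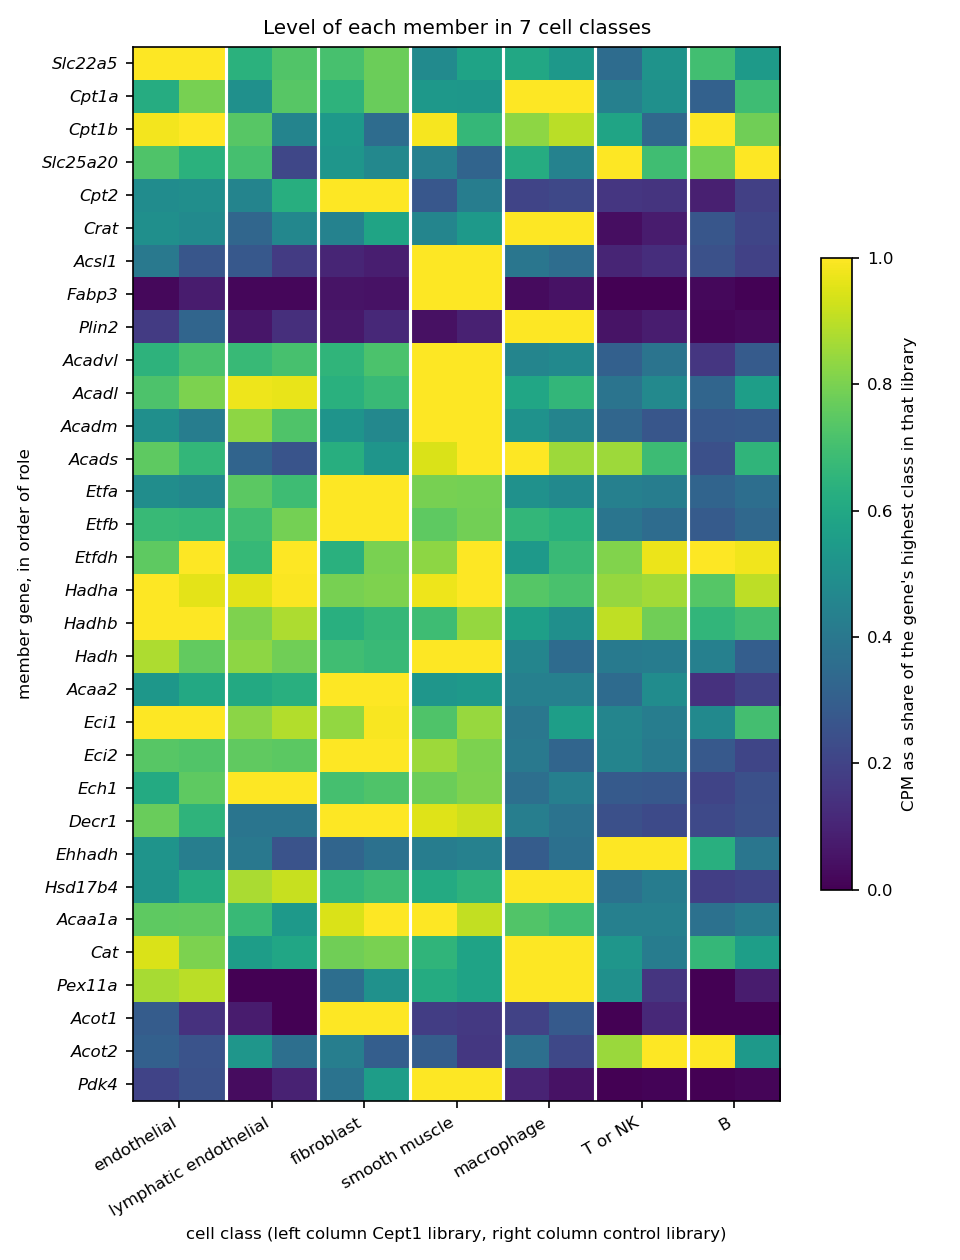
Level of each of the 32 genes in 7 cell classes, as CPM divided by the gene's highest class in the same library; in each class the left column is the Cept1 library and the right column the control library. Paired columns are alike for most genes, and Fabp3, Acsl1 and Pdk4 stand out in smooth muscle, Plin2 and Crat in macrophages, and Cpt2 and Acaa2 in fibroblasts.

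Within endothelium some of the genes differed between capillary and arterial cells in both libraries. Of 26 genes measured in both, 7 were higher in capillary cells with intervals above 0 in both libraries: Acsl1, Plin2, Acadl, Acads, Etfb, Hadhb and Ech1. Among all 10352 genes measured in both, 19.0% were higher by this rule and 18.9% were lower. Of the 26, Cpt1a alone was lower in both libraries, and the other 18 met neither rule. Plin2 was 7.36-fold higher in capillary than in arterial cells in the Cept1 library and 6.202-fold higher in the control library. Acsl1 was 11.7-fold and 7.43-fold higher, and in capillary cells without adipocyte marker UMIs it was still at 35.5 and 60.6 CPM, against 10.7 and 9.25 CPM in all arterial cells. Cpt1a was at 42.4 and 39.0 CPM in capillary cells and at 68.1 and 75.4 CPM in arterial cells, log2 ratios of -0.68 (-1.05 to -0.33) and -0.95 (-1.42 to -0.50). Ech1 was at 148 and 129 CPM in capillary cells and 72.4 and 87.4 CPM in arterial cells. Of these 2 subsets, Ech1 was higher in the Cept1 library in capillary cells only, with 272 and 182 UMIs. Its log2 ratio between the libraries was 0.14 (-0.25 to 0.52) in capillary cells with adipocyte marker UMIs. In those without it was 0.31 (-0.10 to 0.73), so both intervals included 0. Adipocyte marker UMIs were found in 33.3% and 37.5% of capillary cells, and each of the 7 genes was higher in these cells than in the rest. Without them Ech1 was at 133 and 107 CPM, Etfb at 103 and 70.2 CPM and Hadhb at 118 and 82.6 CPM. With them Etfb was at 158 and 156 CPM and Hadhb at 158 and 143 CPM. The intervals against arterial cells were not recomputed without them. Arterial and capillary cells had medians of 7327.5 and 4554 UMIs in the Cept1 library and of 9260 and 6048.5 UMIs in the control library.

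The trifunctional protein joins HADHA and HADHB subunits, and their genes share the promoter region shown above, so the ratio of their UMIs was compared across classes. In capillary cells Hadhb had 249 UMIs to 167 of Hadha in the Cept1 library, a ratio of 1.49 (1.22 to 1.82), and 158 to 97 in the control library, a ratio of 1.63 (1.26 to 2.12). In arterial cells the ratios were 1.05 (0.90 to 1.21) and 1.05 (0.83 to 1.32). They were 0.97 and 1.00 in lymphatic endothelium, 0.92 and 0.94 in fibroblasts, 0.82 and 0.95 in smooth muscle, 0.89 and 0.79 in macrophages, 1.25 and 1.03 in T or NK cells and 1.04 and 0.87 in B cells. Capillary cells had the highest ratio of these classes in both libraries, the order of the others differed, and the control intervals of capillary and arterial cells overlapped. Capillary cells without adipocyte marker UMIs had 123 Hadhb to 84 Hadha UMIs in the Cept1 library and 60 to 49 in the control library. Those with such UMIs had 126 to 83 and 98 to 48, so the control ratio was higher in cells with adipocyte marker UMIs. Within capillary cells the intervals of the 2 libraries overlapped.

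**Figure D5:**
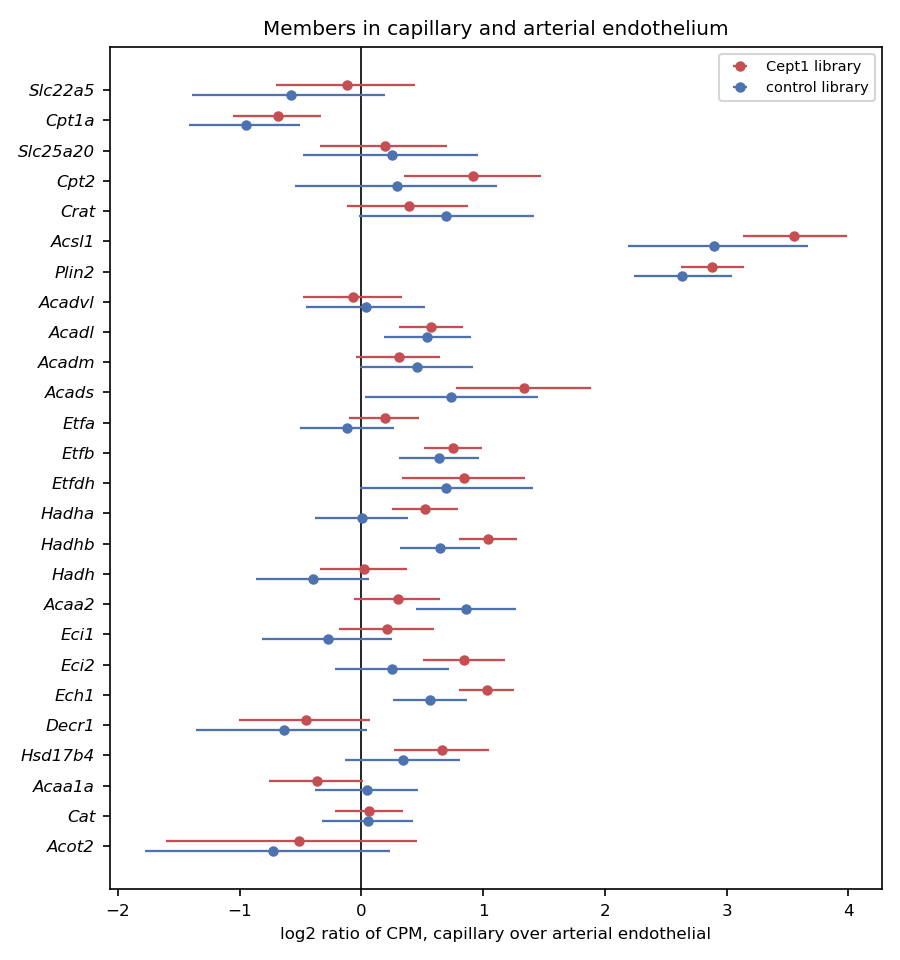
Log2 ratio of CPM in capillary over arterial endothelial cells within each library, for the 26 genes measured in both, with 95% intervals for counting error. Acsl1 and Plin2 lie above 2.5 in both libraries, Cpt1a lies below 0 in both, and most other genes lie between -1 and 1.

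Neighbouring pathways were read from lists that were also chosen with earlier results known. Of 43 other fatty acid oxidation genes, 38 were measured in endothelium, 3 were 1.5-fold higher and 0 were 1.5-fold lower, with a median of -0.04. Over all genes measured in endothelium 8.21% were 1.5-fold higher, 6.13% were 1.5-fold lower and the median was 0.00. The highest were the peroxisomal transporter Abcd2, with 44 and 4 UMIs (2.53), of which 39 and 3 were in capillary cells and 16 and 3 remained there without the barcode with adipocyte markers, and the fatty acid transporter Slc27a1 (0.85). The lowest were the peroxisomal hydrolase Nudt19 and the peroxisomal import receptor Pex7, each at -0.58. All 18 genes of the tricarboxylic acid cycle, which burns the acetyl units, and all 20 of oxidative phosphorylation were within 1.5-fold, with medians of -0.04 and -0.17. In the cycle Suclg2 (0.23) and Sdhc (0.20) were highest and Sucla2 (-0.24) and Suclg1 (-0.23) lowest. In oxidative phosphorylation Cox5b (0.12) and Ndufb8 (0.09) were highest and Cox7b (-0.27) and Atp5b (-0.26) lowest.

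Of the receptors, Ppara was sparse. It had 16 and 5 UMIs in endothelium, at 1.98 and 1.17 CPM (0.75, -0.76 to 2.55), and 14 and 10 UMIs in macrophages. Ppard was at 19.4 and 22.1 CPM in endothelium (-0.19, -0.57 to 0.20) and at 139 and 176 CPM in macrophages (-0.34, -0.44 to -0.24). Pparg was at 275 and 260 CPM in endothelium (0.08, -0.02 to 0.19), although it was at 1175.1 and 732 CPM in capillary cells (0.68, 0.58 to 0.79) and at 1228.6 and 698 CPM in those without adipocyte marker UMIs (0.82, 0.67 to 0.97). Its coactivator Ppargc1a had 30 and 11 UMIs in endothelium (0.52). Ppara and the corepressor Nrip1 (0.62) were the highest of the 14 measured receptors and cofactors, and Ppargc1b (-0.51) and Rxrb (-0.29) the lowest. Of 25 other PPARα targets, 16 were measured in endothelium, 2 were 1.5-fold higher and 3 were 1.5-fold lower, with a median of -0.26. The shares over all genes measured there were 8.21% and 6.13%, with a median of 0.00. Plin4 (2.51) and Cidec (0.97), both also on the adipocyte marker list, were highest, and the lipases Lpl (-0.77) and Mgll (-0.62) were lowest. Plin4 had 65 and 6 UMIs and Cidec 119 and 32. The barcode with adipocyte markers held 35 of the 65 Plin4 UMIs and 60 of the 119 Cidec UMIs. In capillary cells Lpl was at -0.20 (-0.30 to -0.11) without the barcode with adipocyte markers. It was at -0.27 (-0.40 to -0.13) in capillary cells without adipocyte marker UMIs. Angptl4, an inhibitor of lipoprotein lipase, was at 73.5 and 64.1 CPM in endothelium (0.20, -0.01 to 0.41).

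The same list had medians of 0.16 in arterial and 0.15 in capillary cells, each taken alone, beside 0.00 and 0.03 over all genes. In capillary cells adipocyte markers were at 1090 and 200 CPM, and 1332 of their UMIs in the Cept1 library came from the barcode with adipocyte markers. The median of the PPARα targets was 0.10 without that barcode. It was -0.04 (11 genes measured) without the cells with adipocyte marker UMIs. Cd36, a fatty acid transporter, was at -0.28 in the endothelial class, at 0.36 (0.32 to 0.41) in capillary cells with 6791.4 and 5274.6 CPM, and at 0.85 (0.23 to 1.52) in arterial cells with 21.7 and 12.03 CPM. Angptl4 was at 307 and 178 CPM in capillary cells (0.79, 0.57 to 1.01). In the capillary cells without adipocyte marker UMIs Angptl4 was at 262 and 124 CPM (1.08, 0.73 to 1.44) and Cd36 at 6506.8 and 4780.3 CPM (0.44, 0.39 to 0.50). In macrophages 14 of these targets were measured, 12 were higher and 4 of them 1.5-fold higher, 1 was 1.5-fold lower, and the median was 0.40. Over all genes measured in macrophages 53.2% were higher, 6.87% were 1.5-fold higher and the median was 0.02. Cidec, 1 of the 4 with 30 and 6 UMIs, is also an adipocyte marker, and without cells with adipocyte marker UMIs 11 of 13 measured targets were higher, 3 of them 1.5-fold, with a median of 0.36. Cd36 was at 1102.6 and 828 CPM there (0.41, 0.37 to 0.45), Fabp4 at 72.7 and 48.7 CPM (0.58, 0.41 to 0.75; 0.38 without those cells), Angptl4 at 15.0 and 7.82 CPM (0.94, 0.53 to 1.38) and the mitochondrial carrier Ucp2 at 820 and 624 CPM (0.39, 0.35 to 0.44). Mgll was lower, at 2.13 and 4.67 CPM (-1.13, -1.88 to -0.40).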

How the data were processed

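Single-cell counts were analysed from 1 library per group, so groups were compared as libraries and no test was run. The authors deposited UMI counts per gene and barcode, which per the file headers came from Cell Ranger 7.2.0; Seurat and the mm10 build are listed in the submitters' processing notes. A barcode was kept as a cell if 500 or more genes were detected and mitochondrial genes took up to 10% of its UMIs. A class needed at least 50% of its marker genes (3 for monocytes or dendritic cells) and 2 times the share of any other class. Endothelial and lymphatic endothelial classes were not set against each other by this margin. Cells with at least 50% of the lymphatic markers were not called endothelial. Arterial, capillary or venous cells needed 2 of their markers. These thresholds were set after the distribution of marker counts was seen. Cells with enough markers of at least 1 class but without that margin were left out. Scrublet called 0 control cells at its automatic threshold and was used only as an alternative, at the threshold of the Cept1 library (0.2372), where it marked 4.77% and 2.10% of cells.

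UMIs were summed per class and library and given as CPM with exact Poisson intervals, and log2 ratios with exact Clopper-Pearson intervals, at 95%. Molecules of 1 cell are not independent samples of a mouse, so these cover counting error only. Classes with at least 100 cells in each library were described in full, with arterial and capillary cells as subsets. By rule, the text names every gene of the set with at least 20 UMIs in endothelium, in other classes up to 6 genes past 1.5-fold with intervals that did not include 0, and Cpt1a, Cpt2, Acadm, Acadvl, Hadha, Hadhb, Pdk4, Plin2 and Acsl1. Of the other lists it names Ppara, Ppard, Pparg, Ppargc1a, Angptl4 and the 2 highest and 2 lowest in endothelium. Some genes of those lists are not reported here. Further genes were named after their values were seen. The genes, lists and markers were chosen with earlier results of these data known. Splits by Folr2, Arg1 or Spp1, Lef1, platelet marker and adipocyte marker UMIs (brown adipocyte markers included), and the sums without Plin2 or without 1 barcode, were chosen after the values were seen, and Cd163, Ccr2, Ccl3, Trem2, Lyve1, Vegfa and Hilpda were also looked at as splits of macrophages. Alternatives covered cell filters, doublets, scaling, depth, gates, clustering, other cell types and count minimums. Gene IDs were matched to GENCODE vM21 (GRCm38) for 32158 of 32285 features, and promoter sequences came from RefSeq. The ratio code was tested on simulated data. Python 3.11.15, numpy 2.4.6, scipy 1.17.1, pandas 2.3.3, scanpy 1.11.5, leidenalg 0.10.2, R 4.3.3 and edgeR 4.0.16 (TMM factors) were used.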

Additional observations from a re-analysis of the deposited data

How the results depend on the processing

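Each class has 1 library per group, so counting error was the only error measured, and genes with few UMIs had wide intervals. No paired analysis was possible because each group is 1 library and its number only names it. Leaving out the richest barcode of a gene, or macrophages with Arg1 or Spp1 UMIs, was added after the data were seen. Equal weighting of arterial, capillary and venous cells concerns endothelium only. Of the alternative values, 471 of single genes moved by less than counting error, 22 moved by more and 11 changed direction; 119 of 119 medians moved by less. The cause of a change below was not tested unless the setting removes cells or genes.

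Acsl1 (0.36 in endothelium, 0.86 in capillary cells) changed direction. Its log2 ratio in endothelium was -0.56 without Scrublet doublets, -0.46 with cells thinned to 2000 UMIs, -0.46 without cells with adipocyte marker UMIs, -0.65 with equal cells and -0.54 without the richest barcode. In capillary cells the same settings gave -0.51, -0.29, -0.77, -0.55 and -0.45. Cpt2 in smooth muscle was at 0.26 without cells with adipocyte marker UMIs.

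The summed log2 ratio in endothelium was 0.0054 with the looser cell filter (a minimum of 200 genes, up to 20% of UMIs mitochondrial) and 0.0264 with equal weights of its 3 subsets. Before any change of setting, the sum was at -0.05 in lymphatic endothelium, -0.07 in fibroblasts and -0.06 in smooth muscle. It was at -0.08 in arterial cells, -0.06 in T or NK cells and -0.23 in B cells. Thinning gave -0.18 in lymphatic endothelium, -0.0911 in fibroblasts, 0.00495 in smooth muscle and -0.19 in arterial cells. TMM scaling gave -0.0336 in fibroblasts and -0.21 in T or NK cells. Clustered classes gave 0.033 in T or NK cells and -0.0248 in B cells. In capillary cells the sum was 0.33 with the stricter cell filter (a minimum of 1000 genes, up to 5% of UMIs mitochondrial), 0.0698 without Scrublet doublets and 0.0732 with equal cells.

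The number of genes 1.5-fold higher or lower in endothelium (2) was 4 with the looser cell filter, 1 without Scrublet doublets, 0 thinned, 1 without cells with adipocyte marker UMIs and 0 at a minimum of 50 UMIs, and 1 gene was 2-fold higher or lower. In lymphatic endothelium (1) it was 3 with the stricter cell filter, 3 thinned, 2 without cells with adipocyte marker UMIs, 2 at a minimum of 10 UMIs, 3 with no minimum and 2 with equal cells. In smooth muscle (2) it was 1 with the looser cell filter, 1 with totals without mitochondrial, ribosomal and haemoglobin genes, 1 with clustered classes, 4 without cells with adipocyte marker UMIs and 0 at 2-fold. In macrophages (4) it was 2 thinned, 2 at a minimum of 50 UMIs and 1 at 2-fold. In T or NK cells (3) it was 1 with clustered classes, 5 with no minimum and 1 at 2-fold, and in B cells (6) it was 2 at 2-fold. In arterial cells (1) it was 8 thinned, 2 with no minimum, 0 at 2-fold and 2 with equal cells. In capillary cells (3) it was 6 with the looser cell filter, 1 without Scrublet doublets, 6 thinned, 1 without cells with adipocyte marker UMIs, 6 at a minimum of 10 UMIs, 1 at a minimum of 50, 7 with no minimum and 1 at 2-fold.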

Other observations

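Classes with fewer than 100 cells in a library held few UMIs of the fatty acid oxidation genes, and the values here were picked after they were seen. In neutrophils, where Plin2 was higher, Acsl1 was lower in the Cept1 library, with 46 and 139 UMIs at 79.4 and 214 CPM and a log2 ratio of -1.43 (-1.94 to -0.94). Ech1 was lower there too, with 17 and 45 UMIs (-1.24, -2.14 to -0.41). In monocytes or dendritic cells Slc25a20 was at 202 and 127 CPM (0.66, 0.19 to 1.14), and 1 barcode of each library supplied 30.2% and 39.4% of its UMIs. In Schwann cells Pdk4 was at 142 and 65.4 CPM (1.12, 0.29 to 1.99), Cpt1a had 31 and 18 UMIs (1.06, 0.17 to 1.98), and red cell markers were at 6710.5 and 141 CPM. In venous endothelial cells, 80 and 62 of them, Ech1 had 22 and 42 UMIs (-1.03, -1.84 to -0.25).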
